A study of Homo sapiens with 8 samples.

Results

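The Notch pathway was followed in the human neuroblastoma line SH-SY5Y through 10 genes chosen by symbol from the 47591 genes of the deposited expression table. They are the receptors NOTCH1, NOTCH2 and NOTCH3, the ligands JAG1, JAG2, DLL1 and DLL3, and the target genes HES1, HEY1 and HEYL, and every one of them was found under 1 row. RNA-seq of polyadenylated RNA was available for 3 libraries of the G2 line, 3 of the scramble (SCR) line and 2 of the wild-type (WT) line, with no treatment beyond the editing and its selection. G2 cells were edited by CRISPR/Cas9 with 1 guide against PRPF40B, a splicing-related gene, and come from a colony grown by limiting dilution after puromycin selection. SCR cells received a scramble guide with no intended target in place of it, both edited lines were kept in puromycin, and WT cells were not edited. With 1 line per guide, the effect of the edit and any other difference between the lines cannot be told apart. The titles call the libraries biological replicates and name no separate cultures, so the p-values measure the spread between these libraries only.

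Notch is a receptor that is cut when it binds a ligand on a neighbouring cell. FURIN cuts the precursor on its way to the surface, ADAM proteases and then the γ-secretase complex cut it after ligand binding, and the freed intracellular part joins RBPJ and a MAML coactivator on DNA to switch on HES and HEY genes, which encode repressors of transcription. In the nervous system these repressors hold back proneural factors, and in neuroblastoma Notch activity has been linked to the mesenchymal cell state, as opposed to the adrenergic one.

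The promoters of HES1 and HEYL are shown because they alone among the members found in the promoter table hold the core of the RBPJ site, TGGGAA, which is the DNA contact of the Notch complex. Both are given 5′ to 3′ on the strand of the gene, as the 250 bases up to the start site in RefSeq (GRCh38.p14), with each match to TGGGAA or its reverse complement TTCCCA in capitals.
HES1: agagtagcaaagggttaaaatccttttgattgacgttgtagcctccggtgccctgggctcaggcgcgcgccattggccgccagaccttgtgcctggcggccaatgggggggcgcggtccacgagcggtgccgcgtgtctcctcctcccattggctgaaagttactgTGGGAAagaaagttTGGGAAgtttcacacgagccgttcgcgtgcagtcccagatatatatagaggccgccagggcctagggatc
HEYL: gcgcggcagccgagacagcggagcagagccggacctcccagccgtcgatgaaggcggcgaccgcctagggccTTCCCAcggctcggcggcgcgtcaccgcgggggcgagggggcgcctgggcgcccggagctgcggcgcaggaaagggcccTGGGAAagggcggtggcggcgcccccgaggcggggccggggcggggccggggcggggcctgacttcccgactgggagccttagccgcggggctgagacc

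The HES1 stretch is chr3:194135898-194136147 on the plus strand, and its 2 matches lie on the strand of the gene, 84 to 79 and 70 to 65 bases before the start. The HEYL stretch is chr1:39639644-39639893 on the minus strand, and its matches lie 178 to 173 bases before the start on the opposite strand and 99 to 94 bases before it on the gene's own strand. Of 35116 promoter windows of 300 bases searched on both strands, 8439 (24%) held the 6 letters at least once and 1333 (3.8%) held them 2 or more times. The windows of NOTCH1, NOTCH2, NOTCH3, JAG1 and JAG2 held none, and DLL1, DLL3 and HEY1 were not matched in the table. A match describes the letters only, and HES1 and HEYL, with 2 each, were measured at levels far apart in these cells.

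Recovered counts per library ran from 59804395 to 81080747. Most small counts were multiples of 3, and divided by 3 the totals ran from 19934798 to 27026916. PRPF40B, the targeted gene, measured 866 ± 44.5 normalized counts in G2 (SD, n = 3), 1676 ± 8.79 in SCR (n = 3) and 1820 ± 215 in WT (n = 2), and G2 lay 1.00 below the controls on the log2 scale (exact two-sided permutation test of 3 against 5 libraries, p = 0.0179, the smallest possible with 56 groupings), so its transcript was reduced and not absent. Genes of ribosomal RNA took 4.96% and 4.75% of the WT counts and 0.384 to 0.587% of the others. All 12 adrenergic neuroblastoma markers were measured, with TH, the enzyme that starts catecholamine synthesis, close to 0 in G2 (1.88 normalized counts). The summed adrenergic markers ran from 277756 to 284027 in G2, 375380 to 387647 in SCR and 340510 to 353306 in WT, and 8 of the 12 were called lower and 1 higher in each G2 comparison. In SCR/WT limma called 0 of them, with 3 higher and 6 lower at an unadjusted p under 0.05. The summed mesenchymal markers ran from 221253 to 225750 in G2, 84585 to 90240 in SCR and 55336 to 64605 in WT, with 10 of 13 tested called higher and 1 lower in G2/SCR, 13 higher in G2/WT and 6 higher in SCR/WT. PRRX1, WWTR1 and RUNX1 of that list had a mean under 10 in both control lines, so they passed the filter on low values through G2, where they are high. They are among the 13 tested, and their calls are a description only. FN1 and MEOX2 were at or near 0 throughout. Schwann cell markers summed to 170 to 267 in G2, 387 to 595 in SCR and 426 to 463 in WT, with SOX10 at 0 and FOXD3 at or near it. Of the 3 Schwann cell markers tested, 1 was called higher and 1 lower in each G2 comparison, and limma called 0 in SCR/WT. Beside these marker counts, 15.1% of all 18947 tested genes were called higher and 11.8% lower in G2/SCR. The shares were 17.7% and 12.2% in G2/WT, and 10.7% and 5.63% in SCR/WT. In the G2 comparisons the mesenchymal sum was thus higher, as were the receptors and HES1 and HEY1 described below. The adrenergic and Schwann cell sums were lower there, although the called Schwann cell markers went both ways. In SCR/WT the mesenchymal and adrenergic sums were both higher, although the median log2 fold change of the 12 adrenergic markers was -0.23. The part of these markers in the Notch values was not tested.

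Values are normalized counts, that is each gene's count divided by a factor for the size of the library. Fold changes are differences of log2(normalized count + 1) from limma, and a gene was called when it changed by at least 1.5-fold with an unadjusted p of at most 0.05. With that rule 9 of the 10 genes had a mean of at least 10 and were tested, and HEYL (mean 3.02) was not. In G2/SCR 5 were called higher (NOTCH1, NOTCH2, NOTCH3, HES1 and HEY1), and 15.1% of all 18947 tested genes were called higher, 11.8% lower and 26.9% in either direction. In G2/WT 8 were called higher, all but DLL3, beside 17.7% of all genes higher, 12.2% lower and 29.9% in either direction. In SCR/WT NOTCH1, JAG1, DLL1 and HEY1 were called higher, 4 of 9 beside 10.7% of all genes higher, 5.63% lower and 16.3% in either direction. By limma 0 members were called lower, while at an unadjusted p under 0.05 without the fold threshold 1 was lower in each comparison (DLL3 in both G2 comparisons and HES1 in SCR/WT), and DESeq2 and edgeR also called 5 members in G2/SCR. DLL1 passed the filter on low values through the edited lines, so its calls against WT are a description only. Each call held when the p was adjusted by Benjamini-Hochberg over all tested genes, a rule that called 25% of all genes in G2/SCR, 28.2% in G2/WT and 13.8% in SCR/WT. The median log2 fold change of the 9 came to 0.89 for G2/SCR, 1.45 for G2/WT and 0.43 for SCR/WT, while that of all tested genes was -0.013, 0.0049 and 0.0099. With DLL1, which was at the floor in WT, set to its fold over that floor, the G2/WT median was 0.90 and the SCR/WT median was again 0.43. The comparisons share libraries, so they are not independent of each other. The G2 libraries lay above all 5 control libraries for 5 members and below all of them for 1, DLL3, beside 22.8% and 19.7% of all tested genes.

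**Figure D1:**
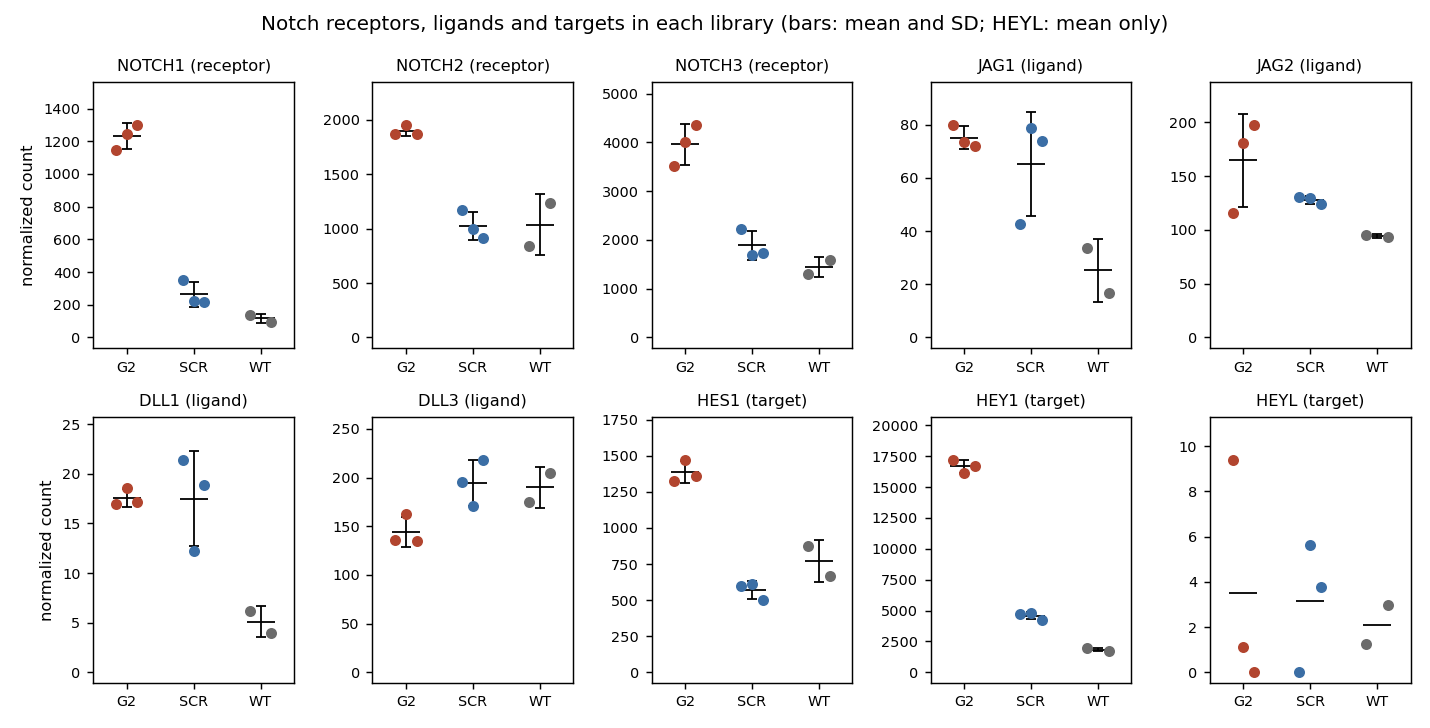
Normalized counts of the 10 Notch genes in each library of the G2, SCR and WT lines, with a separate linear axis for each gene (points, libraries; bars, mean and SD, and for HEYL the mean only). All 3 G2 points lie above all 5 control points for NOTCH1, NOTCH2, NOTCH3, HES1 and HEY1 and below them for DLL3.

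Among the receptors, NOTCH1 rose the most. NOTCH1 (hg38, chr9:136494433-136546048, minus strand, table identifier GSHG0045301) encodes the receptor best known from T cells and neural progenitors. It measured 1148, 1247 and 1300.2 normalized counts in the G2 libraries, 350.1, 221 and 218 in SCR, and 137 and 97.3 in WT. The 3 lines formed separate groups in the order G2, SCR, WT, with SCR replicate 1 above the other SCR libraries. The means were 1232 ± 77.3 (SD, n = 3), 263 ± 75.4 (n = 3) and 117 ± 27.8 (n = 2), ratios of 4.68 for G2 to SCR, 10.5 for G2 to WT and 2.25 for SCR to WT. The log2 fold changes were 2.26 ± 0.18 (SE), 3.40 ± 0.20 and 1.15 ± 0.20, with limma's Benjamini-Hochberg adjusted p of 6.6e-07, 5.0e-08 and 0.0010. NOTCH1 therefore differed between SCR and WT too, the controls that carry no guide against PRPF40B. A microRNA gene, MIR4673, lies within NOTCH1 and was counted at no more than 8.76 in any library.

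NOTCH3 (chr19:15159038-15200995, minus strand), the receptor of vascular smooth muscle that is also expressed in neuroblastoma, had the highest level of the receptors. It measured 3512, 4009.8 and 4360 normalized counts in G2, 2231, 1686 and 1742 in SCR, and 1301 and 1591 in WT. The G2 libraries stood above all controls, and the SCR range lay just above the WT range. The means were 3961 ± 426, 1886 ± 300 and 1446 ± 205, and the log2 fold changes were 1.08 ± 0.12 in G2/SCR and 1.45 ± 0.13 in G2/WT (limma, Benjamini-Hochberg adjusted p = 1.0e-05 and 2.0e-06). SCR/WT was 0.38 ± 0.13, short of the fold threshold, and passed it at 0.66 when the libraries were scaled to the same total.

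NOTCH2 (chr1:119911553-120069662, minus strand), a widely expressed receptor, measured 1872, 1952 and 1869 normalized counts in G2, 1168, 998 and 912 in SCR, and 836 and 1231 in WT. G2 stood apart, while the WT libraries spanned the whole range of SCR. The log2 fold changes were 0.89 ± 0.13 in G2/SCR and 0.90 ± 0.14 in G2/WT (limma, Benjamini-Hochberg adjusted p = 0.00011 and 0.00022), both under 2-fold. SCR/WT was 0.01, with a 95% interval of -0.30 to 0.32. NOTCH2 has near-identical partial copies, and the 4 NOTCH2NL genes of the table summed to 148 to 266 normalized counts in G2, 84.5 to 182 in SCR and 74.5 to 212 in WT, which is 7.94 to 17.3% of NOTCH2. How the counting treated reads that match several genes is not given in the sources used here, so the split between NOTCH2 and these copies is uncertain.

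The 3 receptors, HES1 and HEY1 were each called higher in both G2 comparisons, 5 of 9 members beside 11.3% of all tested genes. NOTCH2, NOTCH3 and HES1 of these were not called in SCR/WT, 3 of 9 beside 8.13%. NOTCH1 and HEY1 were called higher in all 3 comparisons, 2 of 9 beside 2.44%.

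**Figure D2:**
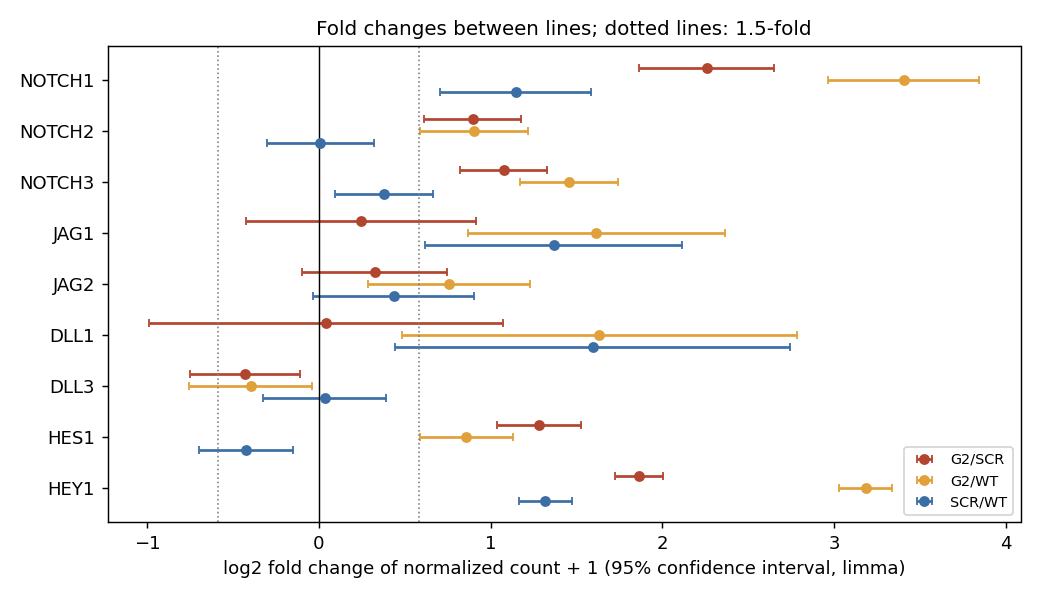
Log2 fold change of each tested member with its 95% interval in G2/SCR, G2/WT and SCR/WT (points, limma estimates; dotted lines, the 1.5-fold threshold). The intervals of NOTCH1, NOTCH3 and HEY1 lie above 0 in all 3 comparisons, those of NOTCH2 and HES1 in both G2 comparisons only, and those of DLL3 lie below 0 in both G2 comparisons.

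Levels of different genes were compared per kilobase of exon (GENCODE 44). The 3 receptors summed to 577 to 679 normalized counts per kilobase in the G2 libraries, 256 to 335 in SCR and 199 to 250.4 in WT, so the sum in G2 lay above every control library. NOTCH3 made up most of it in every library, with 64.7 to 68.3% in G2, 69.9 to 72.0% in SCR and 67.5 to 69.5% in WT. NOTCH4, which is not among the members, is left out of this sum. Its mean per kilobase was 121 in G2, 101 in SCR and 130 in WT, above those of NOTCH1 and NOTCH2 in each line. The balance of NOTCH1 and NOTCH2 differed between the lines. NOTCH1 took 15.3 to 15.9% of the sum in G2, 6.78 to 8.34% in SCR and 3.10 to 5.47% in WT, and NOTCH2 took 16.4 to 19.4%, 20.8 to 23.2% and 25.1 to 29.4%. The ranges of the lines did not overlap for either receptor.

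**Figure D3:**
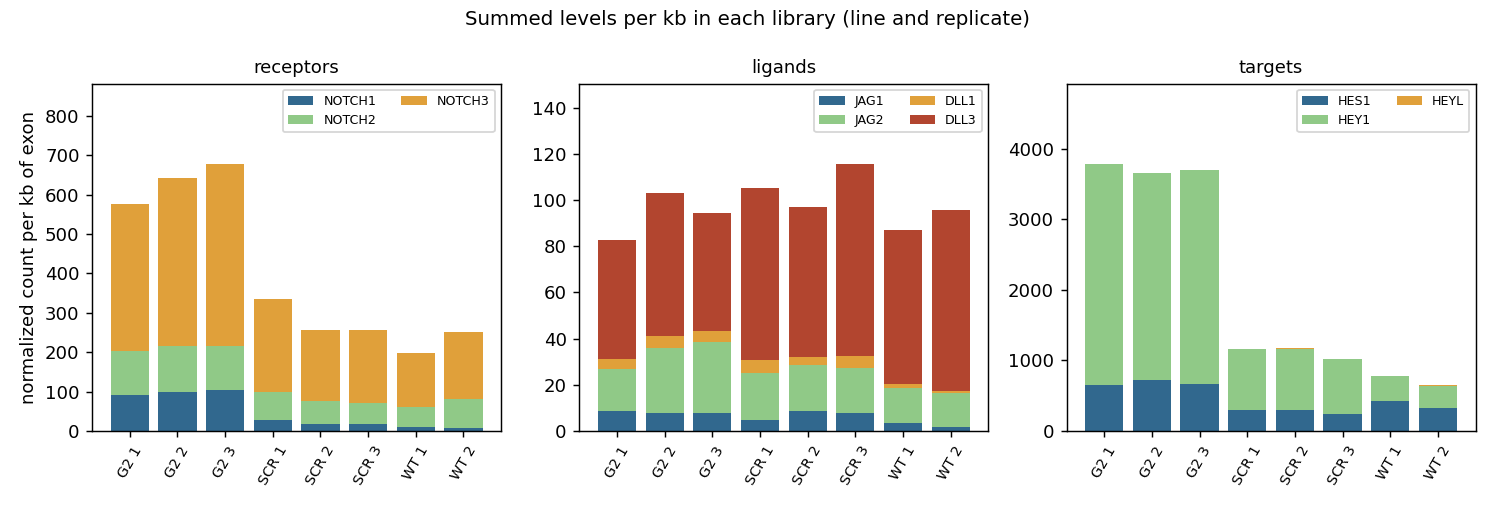
Normalized counts per kilobase of exon of the receptors, ligands and targets in each library, stacked by gene. The receptor and target columns of G2 stand above those of SCR and WT, and the ligand columns of the 3 lines are of similar height.

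In G2/SCR 0 of the 4 ligands were called by limma with the 1.5-fold rule, nor by DESeq2 or edgeR, and 1 of them, DLL3, had an unadjusted p under 0.05. The 3 others were called higher in G2/WT. JAG1 (chr20:10637684-10673999, minus strand), a ligand of the Serrate type that activates Notch receptors, measured 80.0, 73.4 and 72.0 normalized counts in G2, 42.9, 78.8 and 74.1 in SCR, and 33.5 and 16.9 in WT. G2 lay within the SCR range apart from 1 library, and both edited lines lay above WT. On the log2 scale JAG1 differed by 0.25 in G2/SCR (95% interval -0.42 to 0.92, limma, Benjamini-Hochberg adjusted p = 0.53), 1.61 ± 0.34 in G2/WT (adjusted p = 0.0018) and 1.37 ± 0.34 in SCR/WT (adjusted p = 0.0088).

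JAG2 (chr14:105140995-105168824, minus strand), the other Serrate-type ligand, measured 116, 181 and 198 normalized counts in G2, 131, 130 and 124 in SCR, and 95.6 and 93.3 in WT. The G2 libraries were spread on both sides of SCR, and all 6 edited libraries lay above WT. JAG2 rose by 0.76 ± 0.22 in G2/WT (limma, Benjamini-Hochberg adjusted p = 0.011), and the difference was 0.32 in G2/SCR (95% interval -0.10 to 0.75) and 0.43 in SCR/WT, the latter called at 0.71 when the libraries were scaled to the same total.

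DLL1 (chr6:170282206-170291078, minus strand), the Delta-type ligand of neural progenitors, was near the limit of detection. It measured 16.9, 18.6 and 17.2 normalized counts in G2, 21.4, 12.2 and 18.9 in SCR, and 6.21 and 3.97 in WT. These are 16 to 18 recovered counts in G2, 13 to 25 in SCR and 5 and 4 in WT, and WT did not exceed the floor of 9 counts per library (about 3 fragments). With WT set to that floor, the mean of DLL1 was 1.75-fold higher in G2 and 1.74-fold higher in SCR. These folds leave out the counting error of the edited lines. The 95% intervals of limma ran from 0.48 to 2.78 in G2/WT and from 0.44 to 2.74 in SCR/WT on the log2 scale. G2/SCR was 0.04 with a 95% interval of -0.99 to 1.07, which leaves a 2-fold difference undetectable at this depth. FAM120B, a gene at 847 to 1258 normalized counts, overlaps DLL1 by 376 bases, and the strand setting of the counting is not given in the sources used here.

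DLL3 (chr19:39498895-39508469, plus strand), a divergent Delta that does not activate Notch from a neighbouring cell and inhibits it within its own, was the sole tested member with every G2 library under the controls. It measured 135, 162 and 134 normalized counts in G2, 195, 171 and 218 in SCR, and 175 and 205 in WT. The highest G2 library stayed under the lowest control library by a narrow margin. The log2 difference was -0.43 from SCR (95% interval -0.75 to -0.11, limma, Benjamini-Hochberg adjusted p = 0.028) and -0.40 from WT (adjusted p = 0.060), under the 1.5-fold threshold in both, and so DLL3 was not called.

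Per kilobase of exon the 4 ligands together came to 82.9 to 103 normalized counts in G2, 97.2 to 116 in SCR and 87.1 to 95.6 in WT, overlapping between the lines. DLL3 was the largest share of this sum in every library, 54.3 to 62.4% in G2, 67.1 to 72.1% in SCR and 76.8 to 81.7% in WT. JAG1 took 7.67 to 10.4% of the sum in G2, 4.39 to 8.73% in SCR and 1.90 to 4.14% in WT, and JAG2 took 21.8 to 32.7%, 16.7 to 20.8% and 15.3 to 17.2%.

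Of the targets, HEY1 had the highest mean normalized count of all members in each line, before any scaling to length. HEY1 (chr8:79764024-79767780, minus strand), a repressor induced by Notch in many tissues, measured 17229, 16149.9 and 16695 normalized counts in G2, 4758, 4775 and 4239.8 in SCR, and 1925 and 1752 in WT. The 3 lines were far apart in the order G2, SCR, WT, with little spread within any of them. The means were 16691 ± 539.6, 4591 ± 304 and 1838 ± 122, ratios of 3.64 for G2 to SCR, 9.08 for G2 to WT and 2.50 for SCR to WT. The log2 fold changes were 1.86 ± 0.06, 3.18 ± 0.07 and 1.32 ± 0.07 (limma, Benjamini-Hochberg adjusted p = 3.7e-10, 1.2e-11 and 1.8e-07).

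The genes around HEY1 were higher in G2 as well. The 20 nearest genes whose mean was 100 or more span 10.8 Mb of chromosome 8 (74350383 to 85146080). Their median in G2/SCR was 0.75 on the log2 scale, with 13 called higher and 1 lower, and in G2/WT it was 0.80, with 11 higher and 1 lower. In SCR/WT it was 0.04, with 1 higher and 1 lower. Around the other members the median of the 20 nearest genes lay between -0.24 and 0.15 in G2/SCR. The fold change of HEY1 exceeded the median of its neighbours in all 3 comparisons, and the part of the surrounding region in its values was not tested.

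**Figure D4:**
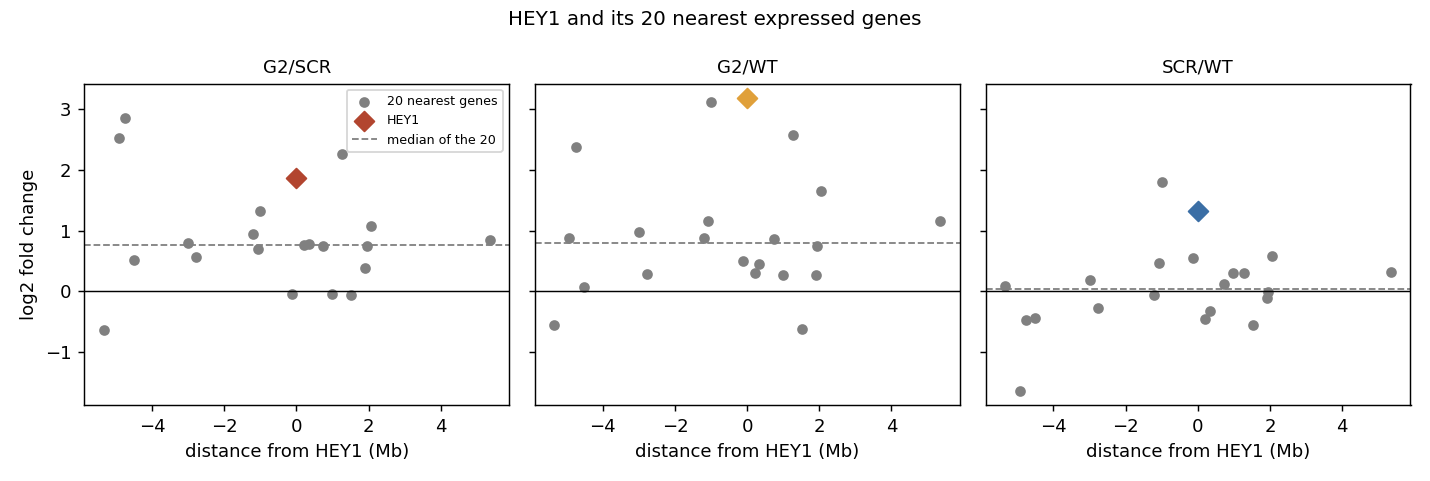
Log2 fold change of HEY1 and its 20 nearest tested genes against their distance from HEY1 in Mb, in G2/SCR, G2/WT and SCR/WT (points, genes; dashed lines, the median of the neighbours). Most neighbours lie above 0 in both G2 comparisons and around 0 in SCR/WT.

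HES1 (chr3:194136145-194138732, plus strand) is the repressor whose promoter is printed above with 2 matches to TGGGAA, the only spelling searched besides its reverse complement. It measured 1329, 1474 and 1360.4 normalized counts in G2, 601, 613 and 500.3 in SCR, and 874 and 667 in WT. G2 lay above all controls, and here the order of the controls was turned, with both WT libraries above all SCR libraries. The means were 1388 ± 76.4, 571 ± 61.9 and 771 ± 146. HES1 rose by 1.28 ± 0.11 in G2/SCR and 0.86 ± 0.13 in G2/WT on the log2 scale (limma, Benjamini-Hochberg adjusted p = 1.5e-06 and 0.00011). SCR/WT was -0.42 ± 0.13 (adjusted p = 0.020), short of the fold threshold, and it was called lower at -0.62 without WT replicate 2.

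HEYL (chr1:39623435-39639646, minus strand), the third of the HEY repressors, was at or near 0. Its recovered counts were 10, 1 and 0 in G2, 0, 6 and 5 in SCR, and 1 and 3 in WT, so only G2 replicate 1 exceeded the floor of 9 counts. No difference between lines was detectable at this depth. Its promoter, like that of HES1, holds 2 matches to TGGGAA or its reverse complement, which describe the letters only.

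Per kilobase of exon the targets summed to 3659 to 3788 normalized counts in G2, 1017 to 1169 in SCR and 644 to 776 in WT. HEY1 made up 80.4 to 82.9% of this in G2, 74.4 to 76.0% in SCR and 45.2 to 49.6% in WT. The GENCODE exon length used for HEY1, 5.487 kb, is longer than its span in the deposited expression table (chr8:79764024-79767780). The sums and the HEY1 shares may therefore be too low, and its order against HES1 in WT is not settled per kilobase. Before scaling to length, HEY1 was the higher of them in WT, with mean normalized counts of 1838 and 771.

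The rest of the pathway was taken from a list of 72 further genes in 8 roles, of which 64 were tested. In G2/SCR 14 were called higher and 8 lower, 34.4% beside 26.9% of all tested genes. In G2/WT 14 were higher and 11 lower, 39.1% beside 29.9%, and in SCR/WT 5 higher and 4 lower, 14.1% beside 16.3%. The genes called in the same direction in both G2 comparisons were 16 of the 64, beside 17.7% of all tested genes. The median over the 64 was 0.07 for G2/SCR and 0.06 for G2/WT on the log2 scale. The list as a whole was thus divided in direction. Its called shares lay somewhat above those of all genes in the G2 comparisons and below in SCR/WT, and these differences were not tested.

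For the counts by role that follow, the shares of all tested genes are 15.1% higher and 11.8% lower in G2/SCR and 17.7% higher and 12.2% lower in G2/WT, and with 4 to 12 genes per role nothing is read from a count near them. Among genes that act on the receptor itself, the enzymes that add sugars to its extracellular part had 4 of 8 tested genes called higher in each G2 comparison and, by limma, 0 lower (1 at an unadjusted p under 0.05 in G2/SCR and 0 in G2/WT). LFNG, a Fringe that alters which ligands a receptor responds to, measured 219 ± 6.54 in G2, 61.6 ± 5.37 in SCR and 116 ± 24.4 in WT, with log2 fold changes of 1.82 in G2/SCR, 0.93 in G2/WT and -0.89 in SCR/WT. EOGT, which adds N-acetylglucosamine to EGF repeats, rose by 1.52 over SCR and 1.39 over WT, and in the same order the xylosyltransferase GXYLT1 rose by 0.94 and 0.66. Of the 9 cleavage genes 2 were called higher against SCR and 4 against WT, and limma called 0 lower (0 and 2 at an unadjusted p under 0.05). FURIN measured 3082 ± 130 in G2, 1421 ± 68.7 in SCR and 1135 ± 59.4 in WT, and NCSTN, the substrate-binding subunit of γ-secretase, rose by 0.81 and 0.94.

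The other receptors and ligands had 1 of 7 tested genes called higher and 3 lower in each G2 comparison. DLK1, a Delta-like protein without the domain that activates Notch, measured 18634 ± 1255 in G2, 32758 ± 2126 in SCR and 39998 ± 5932 in WT, and fell by 0.81 in G2/SCR and by 1.10 in G2/WT. The contactins CNTN1 and CNTN6, described as atypical Notch ligands, fell by 1.31 and 1.42 and by 1.24 and 1.37. In the same role and outside the rule for naming, DLK2 was called higher in G2/WT at 1.32 (0.70 in G2/SCR) and EGFL7 higher in G2/SCR at 0.77 (0.27 in G2/WT), both named after their values were seen.

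In the nuclear complex, 2 of 7 genes were higher in G2/SCR, and 1 was higher and 1 lower in G2/WT. MAML2, a coactivator, rose by 0.94 and 1.02. Of 12 corepressors 1, the histone deacetylase HDAC1, was called higher in G2/SCR at 0.93, and it measured 0.47 in G2/WT. It was named after its values were seen, and limma called 0 of the 12 in G2/WT, where 2 were higher and 5 lower at an unadjusted p under 0.05. Among 12 genes of endocytosis and turnover, DTX1, an E3 ligase that binds Notch and is itself a Notch target in lymphocytes, fell by 1.66 and 1.36, from 2040 ± 50.5 in SCR and 1658 ± 236 in WT to 644 ± 20.2 in G2. AAK1, a kinase of clathrin adaptors, rose by 0.65 and 0.98, the former not called (0.56) with libraries scaled to the same total.

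Further target genes went both ways, with 2 of 5 called higher and 2 lower in each G2 comparison. MYC, a direct target in T cells, fell by 1.95 in G2/SCR and by 1.66 in G2/WT, from 9284 ± 277 in SCR and 7586 ± 31.1 in WT to 2409 ± 144 in G2. CCND1, cyclin D1, rose by 0.61 and 1.23, the former not called (0.52) with libraries scaled to the same total, and also in SCR/WT by 0.62. HES6, which counters HES1, measured 2012 ± 255 in G2, 3554 ± 415 in SCR and 5162 ± 1093 in WT, and fell by 0.82 against SCR and by 1.35 against WT. Apart from HDAC1, DLK2 and EGFL7, the genes named here from the wider list had adjusted p-values of at most 0.0012 in both G2 comparisons (limma, Benjamini-Hochberg).

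**Figure D5:**
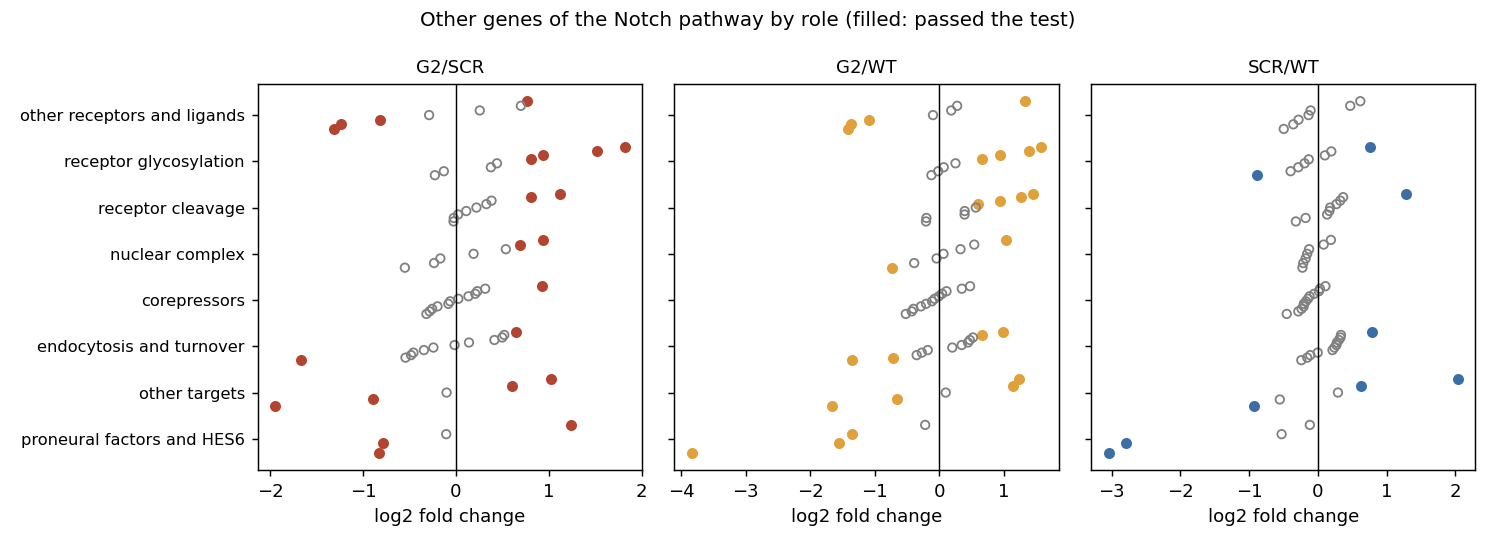
Log2 fold changes of the wider Notch pathway genes by role, with a panel for each of G2/SCR, G2/WT and SCR/WT (points, genes; filled points, called genes). In the G2 panels the called glycosylation and cleavage genes lie above 0, and the other receptors and ligands and the other targets have called points on both sides.

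Over the 8 libraries, the genes with the pattern most like NOTCH1, by Pearson's r of log2(normalized count + 1) among the 13065 genes whose mean was 100 or more, were CD44 (r = 0.997), a surface receptor for hyaluronan that is in the mesenchymal marker list, NR4A3 (r = 0.995) and CHST3 (r = 0.994). CD44 measured 852 in G2, 179 in SCR and 83.2 in WT on average. The genes most like NOTCH3 were SCD5 (r = 0.994), VASH1 (r = 0.989) and GM2A (r = 0.989), and those most like HES1 were HSBP1L1, COLGALT1 and ABCF2 (r = 0.995 each). At r of at least 0.99 there were 22 genes for NOTCH1, 1 for NOTCH3 and 16 for HES1. Between members, HEY1 and NOTCH1 had r = 0.985, NOTCH1 and NOTCH3 r = 0.971, and HES1 and HEY1 r = 0.745. The 8 points belong to 3 lines, so these values mostly describe the order and distance of the lines.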

How the data were processed

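RNA was measured in 8 SH-SY5Y libraries (Illumina Stranded mRNA Prep, paired-end), grouped by their titles. Per the study's methods and the submitters' processing notes, the authors aligned reads to hg38 with STAR 2.7.5a, counted them with featureCounts (Subread 1.5.0) on FAST DB genes and normalized with DESeq2. The deposited signal is the normalized count of each gene, neither logged nor scaled to length. Dividing by each library's step gave whole counts for 100.00% of values (tolerance 0.01), although the step of WT replicate 2 was too near 1 to check. Some 71.3 to 75.6% of small counts were multiples of 3, hence the floor of 9 counts. DESeq2 and edgeR were given the recovered counts undivided. Counting intervals and floors cover counting error only.

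limma 3.58.1 (R 4.3.3; lmFit, eBayes with trend) was fitted to log2(normalized count + 1) of the 18947 genes whose mean reached 10, all 8 libraries together, with adjustment over all tested genes. The fit was tested on simulated data. Alternatives were other pseudocounts, filters, scalings and fold thresholds, a replicate block, each library left out, and DESeq2 1.42.0 and edgeR 4.0.16 on the recovered G2/SCR counts. Wider-list genes are named when called in the same direction in both G2 comparisons with a mean of at least 100, at most 4 per role by p in G2/SCR. A gene that this rule names is not reported here. The members and lists were chosen with earlier results of these data known. Promoters were taken from RefSeq and exon lengths from GENCODE 44. Replicates were not pooled.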

Additional observations from a re-analysis of the deposited data

How the results depend on the processing

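Among the tested members and the genes named by the rule, no called gene changed direction under any alternative run. HDAC1, DLK2, EGFL7, NEUROG2 and HES7 were named outside the rule and were not in this check. The 3 receptors, HES1 and HEY1 kept their call in G2/SCR without each library in turn. Leaving out each library gave 5 to 5 members called in G2/SCR, 8 to 8 in G2/WT and 4 to 4 in SCR/WT, 21 to 23, 22 to 29 and 8 to 13 wider pathway genes, and a PRPF40B difference of -1.04 to -0.95. At a fold change of at least 2, 5 members were called in G2/WT, where NOTCH2, HES1 and JAG2 fell short, and 9, 16 and 4 wider genes were called in the 3 comparisons. With a mean of at least 100, which 7 members reach, 2 were called in SCR/WT. With libraries scaled to the same total, the median of all genes moved to -0.10, 0.19 and 0.28 (G2/SCR, G2/WT, SCR/WT), the members called in SCR/WT became 6 and the wider genes 15. That scaling called 2485 genes higher and 2743 lower, 4515 and 1448, and 3959 and 411 in the same order, against 2858 and 2230, 3353 and 2304, and 2031 and 1066. Over all genes, 5088, 5657 and 3097 were called, against 2951, 3176 and 1491 at 2-fold and 3088, 3633 and 1723 with a mean of at least 100. DESeq2 and edgeR called 5 members and 23 wider genes in G2/SCR. Of other values for single genes, 564 of 576 without 1 library and 732 of 762 under other settings kept their side of the threshold.

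The replicate numbers were not taken to pair the libraries. Same-numbered libraries had correlations of -0.17 to 0.15 in their deviations from the line means. Of the 8 libraries, 2 correlated best with their own number in the titles and 4 with that in the library names. Deviations within a line of 2 or 3 libraries are tied to each other, so this check cannot exclude pairing. With the replicate number of the titles as a block, 5, 8 and 4 members and 22, 25 and 11 wider genes were called. With the number in the library names as the block they were 5, 6 and 3 members, JAG2 and DLL1 not being called in G2/WT nor DLL1 in SCR/WT, and 22, 27 and 10 wider genes. Without WT replicate 2 the members called in SCR/WT were not the same genes, since DLL1 lost its call and HES1 passed the fold threshold at -0.62. The cause of these changes was not tested. Depth limits DLL1 and HEYL, which lie near the floor.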

Other observations

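Some wider pathway genes outside the rule for named genes had values that ordered the lines differently, and they were chosen after their values were seen. NEUROG2, a proneural factor, measured 1614 ± 68.2 normalized counts in G2 (SD, n = 3), 683 ± 75.7 in SCR (n = 3) and 4753 ± 548 in WT (n = 2), so it was called higher in G2/SCR (1.24 on the log2 scale) and lower in G2/WT (-1.55) and SCR/WT (-2.80). HES7, the oscillating repressor of the segmentation clock, measured 129 ± 11.3 in G2, 242 ± 26.7 in SCR and 58.6 ± 12.6 in WT, highest in SCR. NOTCH4, the receptor of endothelium, measured 1181 ± 66.7 in G2, 989 ± 87.9 in SCR and 1267 ± 107 in WT and was not called in any comparison. RBPJ, the DNA-binding partner of all Notch receptors, measured 1715 ± 32.0 in G2, 2017 ± 26.6 in SCR and 1779 ± 254 in WT and was not called either. The recovered counts of MFNG, a Fringe under the filter on low values, were 0, 0 and 2 in G2, 12, 3 and 21 in SCR, and 7 and 24 in WT.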
